A study of Arabidopsis thaliana with 9 samples.

Results

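Glucosinolates are the sulfur-rich defence compounds of Arabidopsis thaliana and its cabbage relatives. The 32 genes described here make them, move them or switch their synthesis on, and were taken by gene identifier from the 32678 genes in the files. They comprise 20 genes of the aliphatic branch, 7 of the indolic branch, 3 that serve both branches and 2 transporters. The files held values for all 32.

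The aliphatic branch starts from methionine, whose side chain is first lengthened by a cycle of enzymes in the chloroplast, while the indolic branch starts from tryptophan. In both, a cytochrome P450 of the CYP79 family makes an aldoxime, a CYP83 enzyme oxidises it, and conjugation to glutathione, trimming, cleavage, glucosylation and sulfation complete the core. MYB transcription factors act on each branch separately, and proton-coupled transporters load the finished compounds into the phloem.

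RNA selected for poly(A) tails came from whole seedlings in the Col-0 ecotype, 5 days old, kept in constant white light (14.59 µmol of photons per square metre each second). Of the 9 libraries, 3 were of the wild type Col, 3 of the mutant csu5-1 and 3 of the mutant csu5-3. The series title gives CSU5 as a suppressor of COP1, a repressor of light responses, and speaks of a missense mutation. The labels do not say which allele carries it, which other alleles the lines hold, whether each is a single line, or whether replicates were separate cultures. P-values therefore measure the spread between these samples, which may be technical. Whole seedlings mix organs, and in such bulk RNA fewer cells of a type and less RNA per cell cannot be told apart.

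The libraries held 37.1 to 43.0 M counted reads, recovered from the steps between low values, and 22643 to 22784 genes above 0. On the first principal component, which held 66.9% of the variance, Col and csu5-3 scored -26.1 to -22 and csu5-1 scored 45.7 to 49.1. Of the shoot, root, phloem and seed markers listed for a check of the tissue, shoot genes were abundant (RBCS1A at 5939 to 8949 FPKM), root and phloem genes were present, and the 4 seed storage genes summed to 1.09 to 10 FPKM.

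In Col the members of the 2 branches stood at different levels by the median gene, and in the opposite order by sums over unequal numbers of genes. The deposited values, whose unit is not stated, were read as FPKM, which scales reads by exon length and library size and so allows levels to be set side by side between genes. Overlaps between genotypes are stated on these values, before the further scaling of libraries used for the folds. The median over the 20 aliphatic genes was 1.58 FPKM in Col, and over the 7 indolic genes 27.9 FPKM. The 17 aliphatic enzymes and importer summed to 183 ± 12.1 FPKM (SD, n = 3) in Col, and the 5 indolic enzymes to 143 ± 12.7. IIL1 alone, an enzyme of a step shared with leucine synthesis, gave 90.6 FPKM of the aliphatic sum. Enzymes of both branches outside the 32 genes had means above 90.6 FPKM in Col and are not in these sums. The order of the sums is thus that of the members chosen and not of the whole branches. Of the aliphatic genes, 8 lay under 1 FPKM, 7 from 1 to 10 FPKM and 5 at 10 FPKM or more. Those 5 were IIL1, GSTU20, AT2G31790, MYB28 and SOT18. Of the indolic genes, 5 lay at 10 FPKM or more, and MYB51 and CYP81F2 lay from 1 to 10 FPKM. The highest gene of all 32 in Col was the aliphatic IIL1 at 90.6 FPKM, followed by the indolic CYP83B1 at 55.2 FPKM. The shared genes had a median of 21.1 FPKM and the transporters of 25.8 FPKM. The 8 aliphatic genes under 1 FPKM in Col also missed the level required for testing, 1 FPKM in at least 3 libraries of any genotype. These were MYB29, MYB76, BCAT4, MAM3, CYP79F1, CYP79F2, GSTF11 and FMO GS-OX1. The 24 genes tested were thus 12 of 20 aliphatic, 7 of 7 indolic, 3 of 3 shared and 2 of 2 transport genes.

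**Figure D1:**
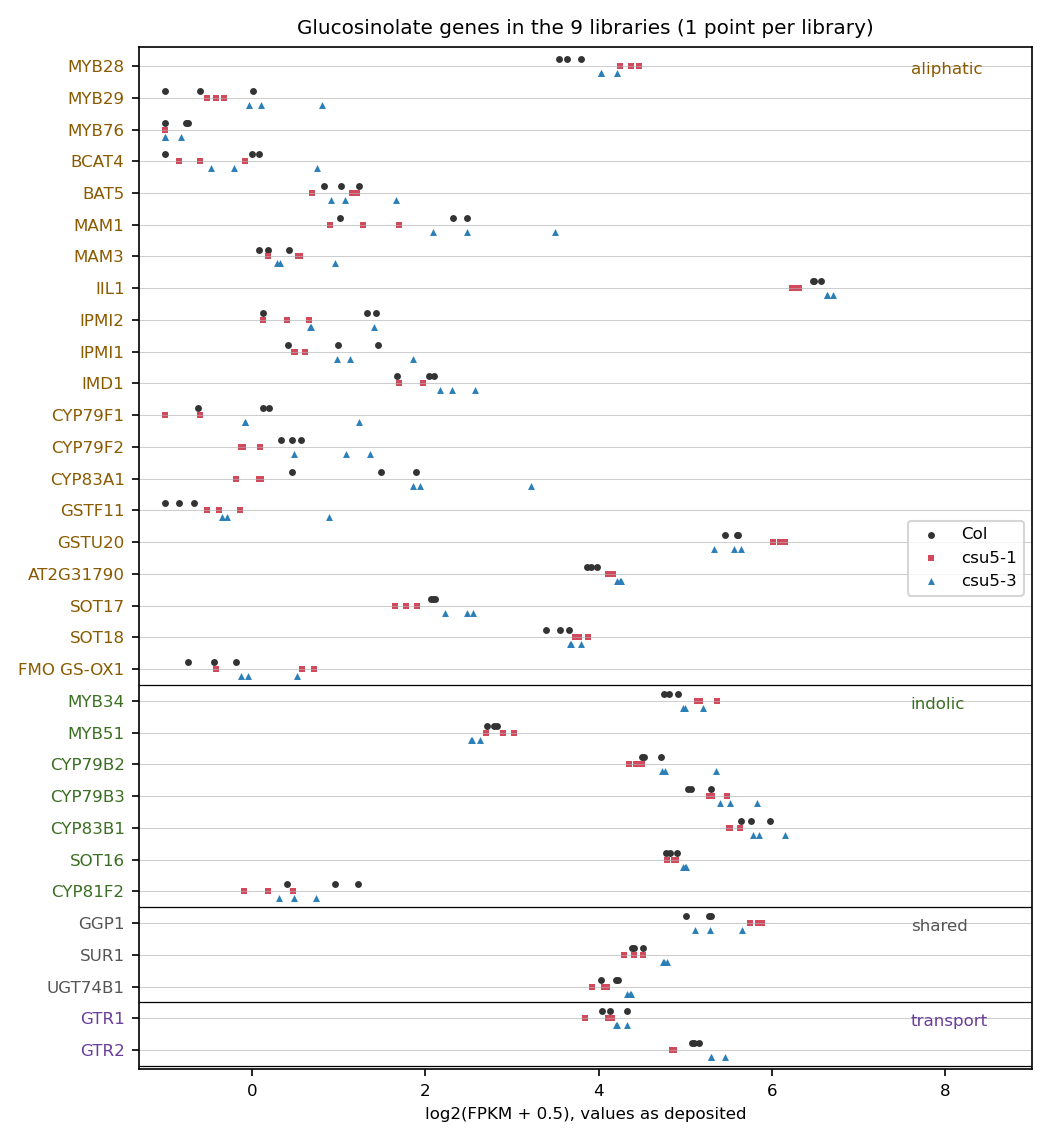
Level of each of the 32 genes as log2(FPKM + 0.5), with 1 point per library and 3 libraries per genotype, grouped into aliphatic, indolic, shared and transport genes. The aliphatic genes spread from the bottom of the axis to IIL1, whereas the indolic genes other than CYP81F2 and MYB51 lie among the higher values in all 9 libraries.

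Libraries of the same genotype differed in the aliphatic genes, in part along the replicate number. Of the 3 csu5-3 libraries, replicate 2 was highest in 18 of 20 aliphatic genes (90%), against 33.1% of all genes tested. It was highest in 5 of 7 indolic genes, and replicate 2 was highest in 6 of 7 in Col and in 6 of 7 in csu5-1. Among the aliphatic genes, replicate 2 was highest in 12 of 20 in Col (31.9% of all genes) but in 6 of 20 in csu5-1 (33%). The 15 aliphatic genes with a mean under 6 FPKM, a limit set after the values were seen, summed to 25.6, 48.5 and 23.9 FPKM in the csu5-3 libraries, and replicate 2 was the highest of these 3 in 15 of 15. In 14 of them the ratio of replicate 2 to the mean of the other csu5-3 libraries could be formed, and it ran from 1.15 for SOT17 to 4.46 for GSTF11, with a median of 2.04. In Col, replicate 3 was lowest in 16 of 20 aliphatic genes (80%), where 33.4% of all genes had their lowest Col value. Replicate 3 was also lowest in 12 of 20 in csu5-1 (34.1% of all genes) and in 14 of 20 in csu5-3 (33.9%). The same 15 genes summed to 22.9, 25.2 and 13.8 FPKM in Col and to 16.8, 15.5 and 12.5 FPKM in csu5-1. The ranges of the Col and csu5-1 sums overlapped, and the 3 csu5-1 sums lay below the 3 csu5-3 sums.

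**Figure D2:**
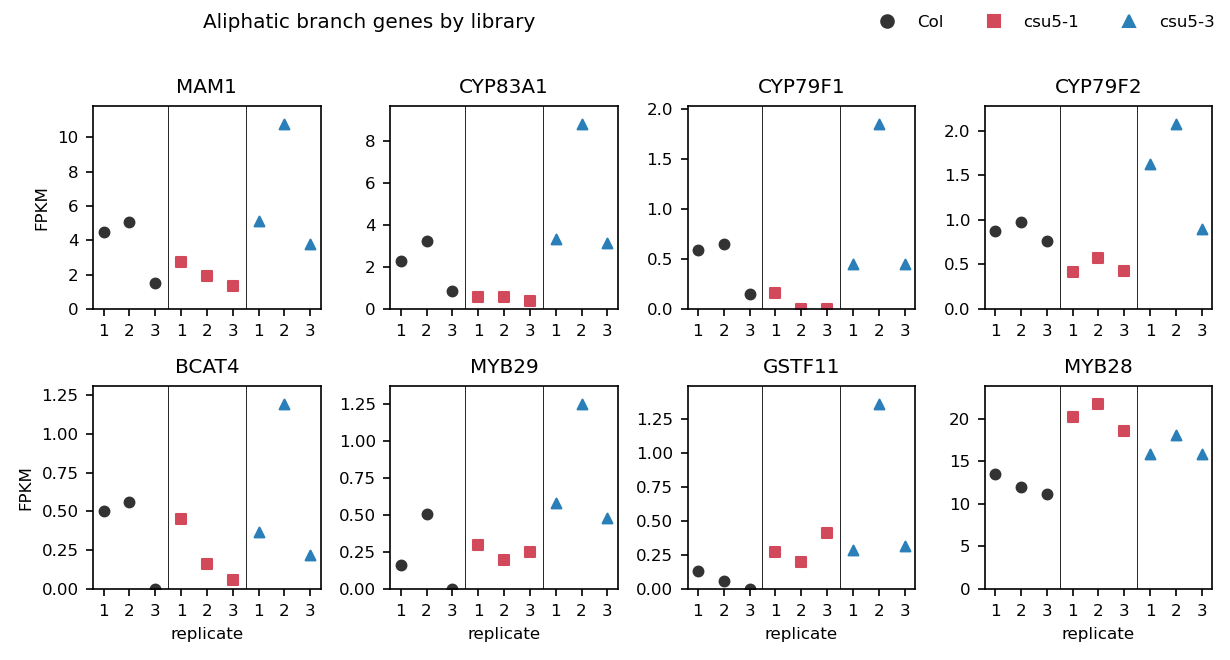
Level in FPKM (linear axes from 0, 1 scale per panel) of 8 aliphatic genes in each library, with 3 replicates per genotype. Replicate 2 of csu5-3 is the highest point in every panel but that of MYB28, where the csu5-1 libraries at 18.6 to 21.7 FPKM are highest.

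Against Col, csu5-1 had more RNA of the aliphatic regulator MYB28, of the glutathione transferase GSTU20 and of the shared peptidase GGP1, and none of the 24 genes tested fell. A gene was called when limma's Benjamini-Hochberg adjusted p, over all 19329 genes tested, was under 0.01 and its fold over 1.5. By that rule 3 of the 24 genes tested rose and 0 fell, against 8.31% of all genes tested that rose and 7.86% that fell. The 3 called are 2 of 12 aliphatic genes and 1 of 3 shared genes, while 0 of 7 indolic and 0 of 2 transport genes were called. These counts are near the background shares, and nothing particular to the set is read from them. At an unadjusted p under 0.05, 7 of the 24 were higher and 4 lower, where 27.4% of all genes tested were higher and 28.5% lower. The median log2 fold was -0.07 over the aliphatic genes tested and 0.10 over the indolic ones, beside -0.00 over all genes. With a level filter of 5 FPKM the aliphatic median changed sign, to 0.32 over 6 genes. Without scaling of the libraries, all genes called in csu5-1 split into 1313 that rose and 1962 that fell, in place of 1606 and 1519.

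In csu5-3 against Col, 0 of the 24 genes were called in either direction, where 0.119% of all genes tested rose and 0.129% fell. At an unadjusted p under 0.05, 13 of the 24 were higher and 0 lower, where 9.78% of all genes tested were higher and 12.2% lower. CYP83A1 was among those higher, and it reached the level for testing only through the csu5-3 libraries, where it was high. It enters this count, the folds above 0 and the aliphatic median below with that limit. The count was not repeated without csu5-3 replicate 2. The smallest adjusted p was 0.018, for MYB28. Of the 24 log2 folds, 20 were above 0, where 9583 of all 19329 genes tested were. The median log2 fold was 0.32 over the aliphatic and 0.16 over the indolic genes, with -0.00 over all genes. Leaving out csu5-3 replicate 2 brought the aliphatic median to 0.22, and the indolic median was then 0.16 over 6 genes. The count of all genes called in this comparison was 48, and it dropped when a library was left out: to 11 for Col replicate 1, to 27 for Col replicate 3, to 29 for csu5-3 replicate 1 and to 20 for csu5-3 replicate 2. The comparisons of csu5-1 and of csu5-3 with Col use the same 3 Col libraries.

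Set against each other, the mutants gave calls in 2 of the 24 genes, both aliphatic. GSTU20 was higher and CYP83A1, the P450 that oxidises aliphatic aldoximes, was lower in csu5-1 than in csu5-3. Of all genes tested, 8.12% were higher in csu5-1 and 6.59% lower, so that 1 member in each direction is no more than that background. CYP83A1 reached the level for testing only through the csu5-3 libraries, where it was high, and its call adds nothing to that count. No indolic gene was called, and at an unadjusted p under 0.05 the 24 genes split into 5 higher and 11 lower in csu5-1, where 25.5% of all genes tested were higher and 26.9% lower. The median log2 fold was -0.35 over the aliphatic genes tested, 9 of the 12 being negative, and -0.14 over the indolic genes, 5 of the 7 being negative. Over all genes it was -0.01, with 9845 of the 19329 tested being negative. CYP83A1 enters the unadjusted count and the aliphatic median with the limit given above. The aliphatic median was -0.26 when csu5-3 replicate 2 was left out, and it changed sign, to 0.07 over 6 genes, with a level filter of 5 FPKM. Unscaled, all genes called split into 1300 higher and 1689 lower in csu5-1, in place of 1569 and 1273. Whether the branches differed in their response was not tested, and the medians are descriptions.

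**Figure D3:**
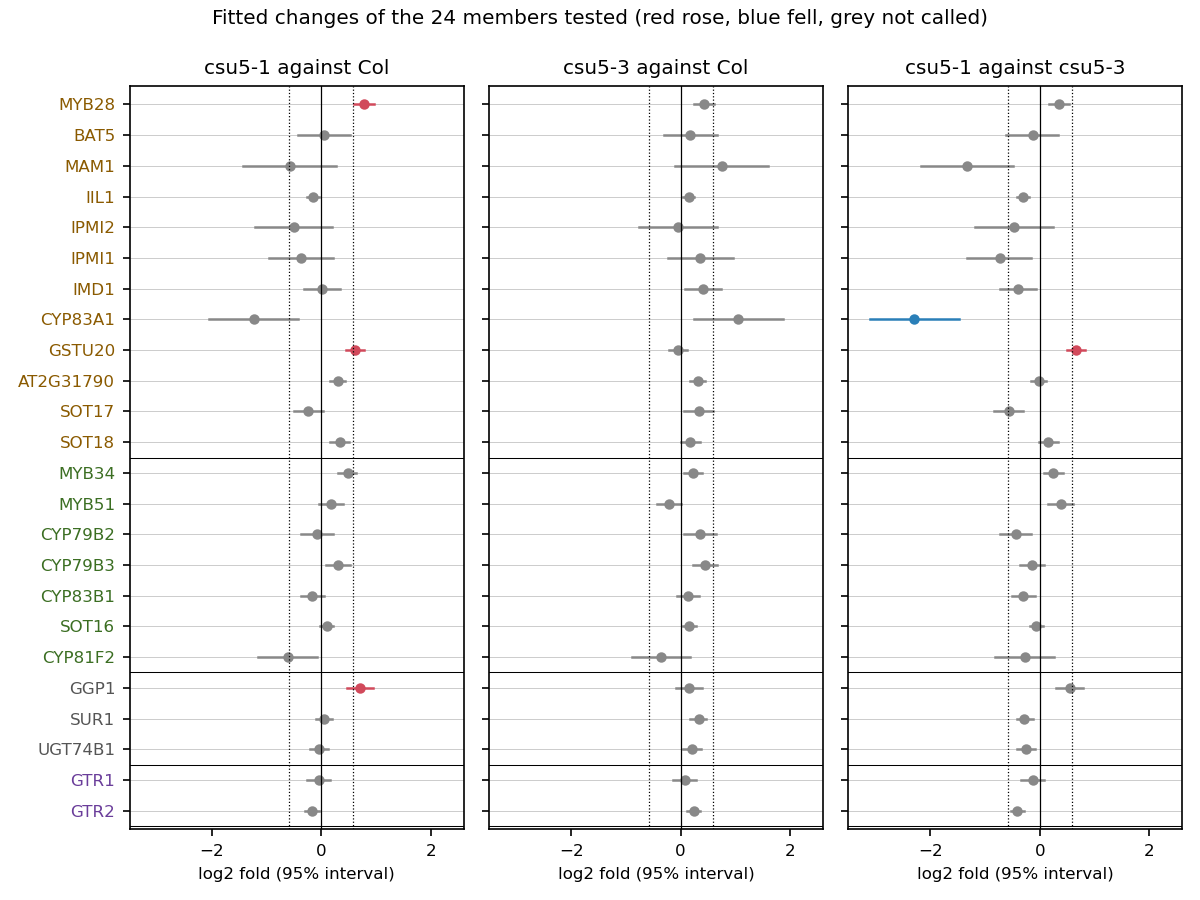
Fitted log2 fold (points) with its 95% interval (lines) of the 24 genes tested, in the 3 comparisons, with dotted lines at a fold of 1.5 in each direction. MYB28, GSTU20 and GGP1 rose in csu5-1 against Col, none was called in csu5-3 against Col, and GSTU20 and CYP83A1 were called between the mutants.

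Of the aliphatic regulators, MYB28 (AT5G61420) was by far the most abundant. MYB28 activates most genes of methionine-derived glucosinolate synthesis. Its level was 13.5, 11.9 and 11.2 FPKM in the Col libraries, 20.2, 21.7 and 18.6 FPKM in csu5-1 and 15.9, 18.0 and 15.8 FPKM in csu5-3. The 3 genotypes did not overlap, with csu5-1 highest and Col lowest. MYB28 rose 1.72-fold in csu5-1 against Col (log2 fold 0.78 ± 0.08 SE, limma adjusted p = 9.7e-06). In csu5-3 its log2 fold was 0.43 ± 0.08 (adjusted p = 0.018) and did not pass. Between csu5-1 and csu5-3 the log2 fold was 0.35 ± 0.08 with an adjusted p of 0.0044, below the fold asked for.

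The other activators of the aliphatic branch were close to undetected. MYB29 (AT5G07690) had 0 to 0.51 FPKM in Col, 0.20 to 0.30 FPKM in csu5-1 and 0.48 to 1.25 FPKM in csu5-3, where Col overlapped both mutants and the mutants did not overlap each other. MYB76 (AT5G07700) was listed at 0 in 6 of 9 libraries and reached at most 0.10 FPKM. Neither was tested.

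The chain elongation genes showed no call in either mutant against Col. BCAT4, the aminotransferase that starts the cycle, lay between 0 and 1.19 FPKM over the 9 libraries. BAT5, which carries the oxo acid into the chloroplast, lay between 1.12 and 2.67 FPKM, with a log2 fold of 0.05 ± 0.22 in csu5-1 and of 0.18 ± 0.22 in csu5-3 against Col. MAM1, the synthase that adds each new carbon unit, had 4.49, 5.09 and 1.53 FPKM in Col, 2.75, 1.93 and 1.37 FPKM in csu5-1, and 5.11, 10.8 and 3.77 FPKM in csu5-3. Every csu5-3 library was above every csu5-1 library, and the Col libraries overlapped both. The log2 fold of MAM1 was -1.33 ± 0.39 in csu5-1 against csu5-3 (limma adjusted p = 0.014) and -0.58 ± 0.39 against Col (adjusted p = 0.24). The MAM1 difference between the mutants shrank to -0.93 ± 0.37 (adjusted p = 0.063) when csu5-3 replicate 2, the highest library, was left out. It passed without Col replicate 3 (adjusted p = 0.0035) or without csu5-3 replicate 3 (log2 fold -1.63, adjusted p = 0.0077), and in 4 of 17 alternatives in all. Its sister synthase MAM3 stayed between 0.56 and 1.45 FPKM.

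The isomerase and dehydrogenase steps of the cycle share enzymes with leucine synthesis. IIL1 (AT4G13430), the large subunit of the isomerase, had 89.1, 94.0 and 88.7 FPKM in Col, 76.4, 79.2 and 74.8 FPKM in csu5-1 and 103.8, 99.1 and 98.6 FPKM in csu5-3. The order csu5-1, Col, csu5-3 held without overlap, but the sizes were small. The log2 fold of IIL1 was -0.16 ± 0.05 in csu5-1 and 0.15 ± 0.05 in csu5-3 against Col, and -0.30 ± 0.05 between the mutants (limma adjusted p = 0.00025), under the fold of 1.5. The small subunits IPMI2 and IPMI1 and the dehydrogenase IMD1 were far lower, at 0.59 to 2.20, 0.84 to 3.12 and 2.69 to 5.48 FPKM over the 9 libraries. Over the 6 chain elongation genes tested, 6 log2 folds were negative in csu5-1 against csu5-3, from -1.33 to -0.13, and 4 of the 6 were negative against Col. Of all 19329 genes tested, 9845 were negative between the mutants and 9718 against Col. Without csu5-3 replicate 2, BAT5 was at 0.08 ± 0.22 between the mutants. The other chain elongation genes then stayed negative, at -0.93 to -0.23.

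In the aliphatic core, GSTU20 rose and CYP83A1 fell in csu5-1 against csu5-3. GSTU20 (AT1G78370), a glutathione transferase assigned to this branch, had 48.2, 47.7 and 43.5 FPKM in Col, 70.8, 67.6 and 64.1 FPKM in csu5-1 and 46.6, 49.6 and 39.7 FPKM in csu5-3. The csu5-1 libraries lay above the other 6, which overlapped. GSTU20 rose in csu5-1 by a log2 fold of 0.61 ± 0.08 against Col (limma adjusted p = 3.3e-05) and of 0.66 ± 0.08 against csu5-3 (adjusted p = 2.1e-05). Its fold of 1.53 against Col was just past the limit. The log2 fold of GSTU20 against Col dropped below the limit when Col replicate 3 (0.57), csu5-1 replicate 1 (0.58) or the scaling (0.53) was left out. Against csu5-3 it did so when csu5-3 replicate 3 (0.56) or the scaling (0.57) was left out.

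CYP83A1 (AT4G13770) had 2.30, 3.23 and 0.88 FPKM in Col, 0.58, 0.56 and 0.38 FPKM in csu5-1 and 3.34, 8.81 and 3.14 FPKM in csu5-3. The csu5-1 libraries were the lowest 3 of the 9, and csu5-3 replicate 2 was the highest. CYP83A1 fell 4.88-fold in csu5-1 against csu5-3 (log2 fold -2.29 ± 0.37, limma adjusted p = 0.00031). It passed the level filter only with the csu5-3 libraries counted, and was tested because of its level there. The log2 fold was -1.85 (adjusted p = 0.0009) without csu5-3 replicate 2. Against Col the log2 fold of CYP83A1 was -1.23 ± 0.37 in csu5-1 (adjusted p = 0.016) and 1.05 ± 0.37 in csu5-3 (adjusted p = 0.12), neither called. The csu5-1 value passed once Col replicate 3 was left out (log2 fold -1.64, adjusted p = 0.0022), or csu5-3 replicate 2 (log2 fold -1.23, adjusted p = 0.0048).

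CYP79F1 and CYP79F2, the P450s that make aliphatic aldoximes, were too low to be tested. CYP79F1 had 0.59, 0.65 and 0.15 FPKM in Col, 0.16, 0 and 0 FPKM in csu5-1 and 0.45, 1.85 and 0.45 FPKM in csu5-3. CYP79F2 had 0.88, 0.98 and 0.76 FPKM in Col, 0.42, 0.57 and 0.43 FPKM in csu5-1 and 1.62, 2.07 and 0.90 FPKM in csu5-3. For CYP79F2 the csu5-1 libraries were all below the other 6, whereas for CYP79F1 one csu5-1 library overlapped Col. With no level filter, CYP79F2 had a log2 fold of -0.99 ± 0.20 in csu5-1 against csu5-3 (limma adjusted p = 0.0046) and passed.

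Of the other aliphatic core genes tested, AT2G31790, SOT17 and SOT18, none was called in any comparison. AT2G31790, annotated as a UDP-glycosyltransferase family protein, had 14.1 to 15.4 FPKM in Col, 16.7 to 17.4 in csu5-1 and 18.0 to 18.6 in csu5-3. Both mutants lay above Col, with log2 folds of 0.30 ± 0.06 and 0.31 ± 0.06, under the fold of 1.5. The sulfotransferase SOT17 had 3.75, 3.69 and 3.84 FPKM in Col, 3.26, 2.94 and 2.64 FPKM in csu5-1 and 4.20, 5.37 and 5.10 FPKM in csu5-3. These 3 groups of SOT17 values did not overlap. Its log2 fold between the mutants was -0.57 ± 0.12 (limma adjusted p = 0.0021), just short of the limit on fold, and it passed at -0.63 without csu5-1 replicate 1, at -0.66 without csu5-3 replicate 1, and without scaling at -0.64. SOT18, the other sulfotransferase of the branch, had a log2 fold of 0.33 ± 0.08 in csu5-1 and 0.18 ± 0.08 in csu5-3 against Col, and was not called. The transferase GSTF11 stayed between 0 and 0.41 FPKM except for 1.36 FPKM in csu5-3 replicate 2. FMO GS-OX1, which oxygenates the side chain, ranged from 0.10 to 0.38 FPKM in Col, 0.25 to 1.15 in csu5-1 and 0.42 to 0.94 in csu5-3.

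The 7 indolic genes had log2 folds of -0.62 to 0.48 in csu5-1 against Col, beside -1.23 to 0.78 over the 12 aliphatic genes tested. In each branch the lowest fold was that of a gene of low level, CYP81F2 and CYP83A1. The part of level in these ranges was not tested. MYB34 (AT5G60890), an activator of indolic glucosinolate synthesis and of tryptophan synthesis, had 27.7, 29.7 and 26.4 FPKM in Col, 34.6, 40.8 and 35.6 FPKM in csu5-1 and 30.9, 36.3 and 31.3 FPKM in csu5-3. All 6 mutant libraries were above all Col libraries, and the mutants overlapped. The log2 fold of MYB34 was 0.48 ± 0.08 in csu5-1 (limma adjusted p = 0.00028), a fold of 1.39 and so not called, and 0.23 ± 0.08 in csu5-3 (adjusted p = 0.11). MYB51 (AT1G18570), the second activator, had 6.05 to 6.60 FPKM in Col, 5.99 to 7.65 in csu5-1 and 5.28 to 5.70 in csu5-3. MYB51 had log2 folds of 0.17 ± 0.10 in csu5-1 and -0.21 ± 0.10 in csu5-3 against Col, and neither was called.

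The enzymes that turn tryptophan into the indolic aldoxime are CYP79B2 and CYP79B3. CYP79B2 had 22.5, 25.9 and 22.2 FPKM in Col, 19.9, 22.1 and 21.2 FPKM in csu5-1 and 26.6, 40.4 and 26.0 FPKM in csu5-3. CYP79B3 had 32.2, 38.8 and 33.1 FPKM in Col, 39.2, 44.3 and 38.2 FPKM in csu5-1 and 41.7, 56.3 and 45.2 FPKM in csu5-3. In both genes csu5-3 replicate 2 was the highest library, and as deposited every csu5-3 library exceeded every Col library. For CYP79B2 the closest values were 26.03 and 25.94 FPKM, a gap within the scaling between those libraries (factors 1.023 and 1.015). The log2 folds of CYP79B2 and CYP79B3 in csu5-3 against Col were 0.36 ± 0.13 and 0.45 ± 0.10, with limma adjusted p of 0.13 and 0.028. Without csu5-3 replicate 2 they were 0.16 ± 0.08 and 0.33 ± 0.09. With all libraries, they were -0.08 ± 0.13 and 0.30 ± 0.10 in csu5-1 against Col. None of these was called.

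CYP83B1, SOT16 and CYP81F2, the later indolic enzymes among the 32 genes, were not called in any comparison. CYP83B1, which oxidises the indolic aldoxime, had 49.7, 62.4 and 53.6 FPKM in Col, 44.9, 49.0 and 45.1 FPKM in csu5-1 and 54.7, 70.6 and 57.3 FPKM in csu5-3. As deposited, the csu5-1 libraries were the lowest 3, with a log2 fold of -0.17 ± 0.10 against Col. The closest values, 49.0 in csu5-1 replicate 2 and 49.7 in Col replicate 1, lay within the scaling between these libraries (factors 0.9683 and 1.024). The sulfotransferase SOT16 had 26.9 to 31.6 FPKM over all 9 libraries, and its log2 folds against Col were 0.10 ± 0.06 in csu5-1 and 0.16 ± 0.06 in csu5-3. CYP81F2, which hydroxylates the indole ring, was the low gene of the branch, with 0.83 to 1.83 FPKM in Col, 0.44 to 0.89 in csu5-1 and 0.74 to 1.17 in csu5-3, and log2 folds of -0.62 ± 0.25 and -0.35 ± 0.25. CYP81F2 reached the level for testing only with both Col and csu5-3 counted, the genotypes where its mean was higher. It enters the indolic medians with that limit. Summed over the 5 indolic enzymes, the level was 143 ± 12.7 FPKM (SD, n = 3) in Col, 137 ± 6.96 in csu5-1 and 172 ± 24.6 in csu5-3. The csu5-3 sums ran from 155 to 200 FPKM and overlapped those of Col, which ran from 134 to 157.

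Of the genes both branches use, GGP1 (AT4G30530), the peptidase that removes a glutamyl group from the glutathione conjugate, had 38.9, 38.2 and 31.6 FPKM in Col, 56.8, 58.4 and 53.0 FPKM in csu5-1 and 38.5, 49.7 and 34.1 FPKM in csu5-3. The csu5-1 libraries lay above the other 6. GGP1 rose 1.63-fold in csu5-1 against Col (log2 fold 0.71 ± 0.11, limma adjusted p = 0.00026). Against csu5-3 its log2 fold was 0.55 ± 0.11 (adjusted p = 0.0017), under the limit on fold, and it passed at 0.70 without csu5-3 replicate 2 and at 0.59 without csu5-1 replicate 3. SUR1, the lyase that frees the thiol, had 20.4 to 22.3 FPKM in Col, 19.2 to 22.3 in csu5-1 and 26.3 to 27.2 in csu5-3. SUR1 was thus higher in the 3 csu5-3 libraries than in the other 6, with a log2 fold of 0.33 ± 0.07 against Col (adjusted p = 0.02) that was not called. The glucosyltransferase UGT74B1 had 15.8 to 18.2 FPKM in Col, 14.7 to 16.6 in csu5-1 and 19.6 to 20.3 in csu5-3, with log2 folds of -0.04 ± 0.07 and 0.21 ± 0.07.

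The transporters GTR1 and GTR2 import glucosinolates into cells and load them into the phloem. GTR2 (AT5G62680) had 33.7, 35.2 and 33.3 FPKM in Col, 28.6, 28.8 and 28.2 FPKM in csu5-1 and 38.7, 43.4 and 38.8 FPKM in csu5-3, so that the genotypes did not overlap. The log2 fold of GTR2 was -0.17 ± 0.06 in csu5-1 and 0.24 ± 0.06 in csu5-3 against Col, and -0.41 ± 0.06 between the mutants (limma adjusted p = 8.3e-05), in each case under the fold of 1.5. GTR1 had 15.9 to 19.6 FPKM in Col, 13.9 to 17.4 in csu5-1 and 18.0 to 19.6 in csu5-3, and no log2 fold against Col beyond 0.08 ± 0.10. The phloem marker SUC2, a sucrose loader, fell by 0.80 on the log2 scale in csu5-1 against Col (adjusted p = 9.7e-07), while APL, which sets phloem identity, had a log2 fold of -0.18 ± 0.08. The summed phloem markers (2 of 2 present) were 121 to 135 FPKM in Col, 69 to 76.2 in csu5-1 and 129 to 142 in csu5-3. Their part in the transporter values was not tested.

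The 46 other genes of the pathway that were listed for comparison cover regulators, sulfur supply, tryptophan supply, side chain changes and breakdown. AOP2 was not analysed here. Of the 40 tested, 4 rose and 3 fell in csu5-1 against Col, 0 were called in csu5-3 against Col, and 3 were higher and 3 lower in csu5-1 than in csu5-3. Of all genes tested, 8.31% rose and 7.86% fell in csu5-1 against Col, 0.119% and 0.129% did so in csu5-3, and 8.12% were higher and 6.59% lower in csu5-1 than in csu5-3. The pathway counts are near these shares. FMO GS-OX3, among the 4 that rose, reached the level for testing only with the csu5-1 libraries, where it was high, and adds nothing to that count. At an unadjusted p under 0.05, 17 of the 40 were higher and 1 lower in csu5-3 against Col, where 9.78% of all genes were higher and 12.2% lower. This count was not repeated without csu5-3 replicate 2. That library was the highest of all 9 in 16 of the 45 pathway genes in the files (35.6%), against 9.1% of all genes tested. The 2 smallest limma adjusted p in csu5-3 against Col were 0.012 for ESM1, which favours isothiocyanates on breakdown (log2 fold 0.31 ± 0.06), and 0.016 for FMO GS-OX2 (log2 fold 0.58 ± 0.11).

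Of the 6 breakdown genes tested, 2 rose in csu5-1 against Col and 0 fell, beside 8.31% and 7.86% of all genes. NSP1, a specifier protein that directs glucosinolate breakdown to nitriles, had 296, 295 and 255 FPKM in Col, 574, 634 and 574 FPKM in csu5-1 and 329, 367 and 340 FPKM in csu5-3. The genotypes did not overlap. The log2 fold of NSP1 in csu5-1 was 1.16 ± 0.07 against Col (limma adjusted p = 4.1e-08) and 0.86 ± 0.07 against csu5-3 (adjusted p = 5.4e-07). TGG2, a myrosinase that cleaves glucosinolates, had 23.5, 25.8 and 31.4 FPKM in Col, 48.0, 57.8 and 57.3 FPKM in csu5-1 and 37.6, 35.0 and 35.9 FPKM in csu5-3. Its log2 fold in csu5-1 was 1.09 ± 0.10 against Col and 0.66 ± 0.10 against csu5-3, both called, and it was 0.58 without scaling against csu5-3 and then not called. The main myrosinase TGG1, named after its values were seen, lay at 1026 to 1252 FPKM in all 9 libraries, with a log2 fold of -0.11 ± 0.06 in csu5-1.

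Among the other pathway genes tested, 2 of 7 aliphatic rose and 0 fell in csu5-1 against Col, while 0 of 10 indolic rose and 2 fell. Of all genes tested, 8.31% rose and 7.86% fell. Those called in these 2 groups were all side chain genes. FMO GS-OX2, an aliphatic S-oxygenase, had 5.83, 6.64 and 6.14 FPKM in Col, 14.1, 16.8 and 13.5 FPKM in csu5-1 and 8.92, 11.3 and 8.62 FPKM in csu5-3, a log2 fold of 1.26 ± 0.11 in csu5-1 against Col (limma adjusted p = 1.7e-06) and of 0.68 ± 0.11 against csu5-3. FMO GS-OX3, outside the naming rule and named after its values were seen, rose from 0.35 ± 0.0557 FPKM (SD, n = 3) in Col to 1.43 ± 0.125 in csu5-1, and it passed the level filter only with the csu5-1 libraries. On the indolic side, CYP81F3, a ring hydroxylase, had 4.24, 5.03 and 3.63 FPKM in Col, 1.77, 2.27 and 1.88 FPKM in csu5-1 and 4.33, 4.52 and 4.92 FPKM in csu5-3. It fell in csu5-1 by 0.89 on the log2 scale against Col (adjusted p = 0.00019) and by 0.98 against csu5-3. IGMT5, a methyltransferase for the indole ring, had 31.3, 27.9 and 23.1 FPKM in Col, 15.2, 16.7 and 15.4 FPKM in csu5-1 and 26.1, 38.6 and 25.2 FPKM in csu5-3. IGMT5 fell by 0.69 against Col (adjusted p = 0.0013) and by 0.80 against csu5-3 on the log2 scale.

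SDI1, a sulfur-deficiency gene whose protein represses MYB28 activity, had 4.72, 3.83 and 4.60 FPKM in Col, 2.25, 2.11 and 2.07 FPKM in csu5-1 and 3.73, 4.59 and 3.74 FPKM in csu5-3. The csu5-1 libraries were the lowest 3, and SDI1 fell by 0.81 on the log2 scale against Col (limma adjusted p = 0.00019) and by 0.70 against csu5-3 (adjusted p = 0.00067). The 8 sulfur genes, SDI1 among them, had a median log2 fold of -0.11 in csu5-1 and of 0.11 in csu5-3 against Col. The 4 tryptophan genes had medians of -0.22 and 0.18, with none called.

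**Figure D4:**
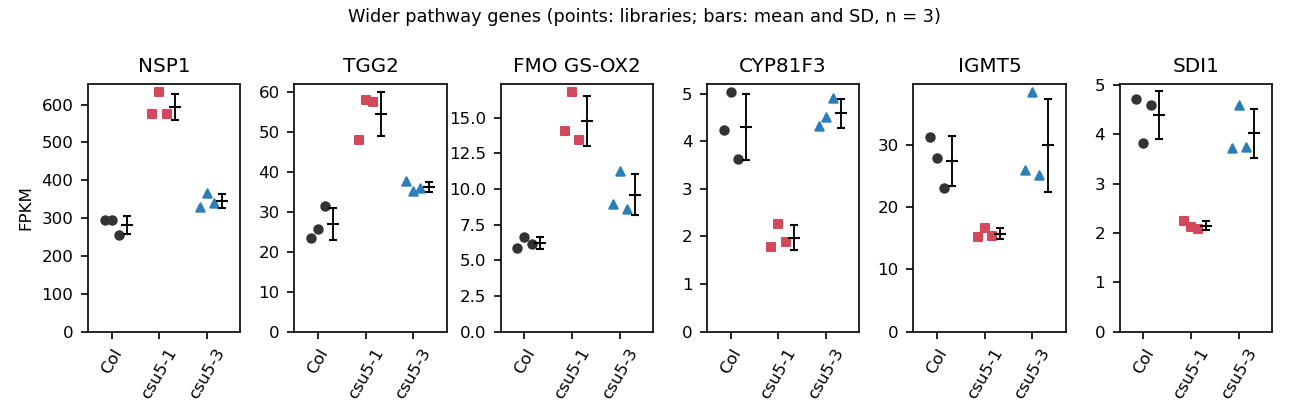
Level in FPKM (linear axes from 0) of 6 other pathway genes in the 3 genotypes, with points for libraries and bars for mean and SD (n = 3). The csu5-1 libraries are the highest 3 for NSP1, TGG2 and FMO GS-OX2 and the lowest 3 for CYP81F3, IGMT5 and SDI1.

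Organ markers moved in csu5-1 as well. Of the 6 root markers, the root hair and wall genes EXPA7, EXPA18, PRP3 and PRP1 fell in csu5-1 against Col. SHR rose, and SCR had a log2 fold of 0.23 ± 0.07 that was not called, so the root markers did not move together. Their summed level was 71.9 to 81.6 FPKM in Col, 56.2 to 57.7 in csu5-1 and 68.8 to 76.4 in csu5-3. Of the 3 shoot markers, the antenna genes LHCA1 and LHCB5 rose in csu5-1, and RBCS1A had a log2 fold of -0.40 ± 0.08 that was not called. The shoot sum was 10839 to 11465 FPKM in Col, 12822 to 13236 in csu5-1 and 10416 to 10795 in csu5-3. The part of these shifts in the csu5-1 results was not tested. Of the 32 genes, 7 overlap another annotated gene in the TAIR10.1 assembly (BCAT4, IMD1, GSTF11, AT2G31790, SOT18, GTR1 and GTR2), and with the strand of counting not stated their values are uncertain. MYB28, GSTU20, GGP1 and CYP83A1 overlap none. Reads of 100 bases could be shared between CYP79F1 and CYP79F2 over at most 0.0581% of their exon positions, and the other 30 genes shared no such stretch.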

How the data were processed

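Per the submitters' processing notes, reads were handled with Trimmomatic, HISAT2 2.05, HTSeq and the TAIR10 build. The deposited files hold 1 value per gene and library without a stated unit. These deposited values were read as FPKM because low values of short genes were whole multiples of 1 read (74.1% to 82.5% within 0.1 read, against 13.4% to 14.8% at other depths). The authors' route from counted reads to FPKM is not stated in these sources, and the values could equally be RPKM.

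From them, log2(FPKM + 0.5) was fitted with limma 3.58.1 (R 4.3.3, mean-variance trend), 1 mean per genotype over all 9 libraries. Libraries were scaled by a mean of log ratios trimmed by 0.3 at each end (factors 0.9598 to 1.026). The 19329 genes that reached 1 FPKM in 3 or more libraries were tested, with Benjamini-Hochberg adjustment. Calls needed adjusted p under 0.01 and a fold over 1.5, the limits in the series text. Fold changes on this scale understate those of low genes. Replicate pairs differed by a mean chi-square of 8.04 to 12.8 per gene, so no library was a copy. The steps were tested on simulated data for csu5-1 against Col. Folds were set there only in genes of higher level, so recovery of folds in the low genes was not tested.

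The members and lists were chosen with earlier results of these data known. Any member could be named; of the other pathway genes, the called genes with the 5 smallest p per comparison, or the 2 smallest where none was called. Names came from RefSeq's TAIR10.1 tables, and no coordinates are given because the authors used TAIR10. Alternatives covered pseudocount, level filter, scaling, the libraries fitted, a replicate block and leaving out each library.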

Additional observations from a re-analysis of the deposited data

How the results depend on the processing

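None of the called members or called genes of the wider pathway list changed direction under the alternatives in which they were tested. Raising the level filter to 5 FPKM left 6 aliphatic genes and moved their median log2 fold to 0.32 in csu5-1 against Col (from -0.07) and to 0.07 against csu5-3 (from -0.35), while 1 member was then called between the mutants, since CYP83A1 was not tested. With no filter, 4 members were called between the mutants in place of 2, and 9 genes of all in csu5-3 against Col in place of 48. Without scaling, the indolic median was 0.02 in csu5-1 against Col (from 0.10). CYP83A1 in csu5-1 against Col also passed at a pseudocount of 0.1 (log2 fold -1.66). It was called between the mutants in each of the 16 alternatives where it was tested, at -2.88 to -1.85, but it passes the level filter only through csu5-3, so this is no sign of stability. Fitted on the 6 libraries of the mutants alone, MAM1 passed (adjusted p = 0.0056).

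Leaving out 1 library at a time gave 11 to 51 genes called in csu5-3 against Col, 2863 to 3129 in csu5-1 against Col and 2579 to 2831 between the mutants, with 2 to 4 members, and 2 to 3 between the mutants, and 0 in csu5-3. The aliphatic medians ran from -0.15 to -0.06, 0.22 to 0.37 and -0.41 to -0.26 in csu5-1 against Col, csu5-3 against Col and between the mutants. The indolic medians ran from 0.08 to 0.13, 0.16 to 0.23 and -0.23 to -0.04.

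Libraries with the same replicate number deviated together weakly, with every correlation positive (0.02 to 0.15). For 7 of 9 libraries, the best partner in both other genotypes carried their own number. What libraries of the same number share is not stated. The main fit did not take the numbers as pairs, so any effect shared by number stays in its spread. With the replicate block, 77 genes (34 rose, 43 fell) were called in csu5-3 against Col, and CYP83A1 (csu5-1 against Col, adjusted p = 0.0018) and MAM1 (between the mutants, adjusted p = 0.00071) passed.

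The 8 members under the level filter had at most 245 estimated reads in a library, with at most 6 for MYB76. Some members that were tested had as few, such as IPMI2 at 28 to 110 reads. It was thus the level filter that kept the 8 from testing, and few reads limit what can be detected in the lowest of them.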
